A study of Mus musculus with 6 samples.

Results

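Tetraspanins were compared between mouse 4TO7 mammary tumour cells with Six2 overexpression and 4TO7 cells transduced with the pcDNA vector (control), with 3 arrays in each group. The family was taken as the probe sets whose platform annotation names 1 gene alone, with a symbol of Tspan and a number, or Cd9, Cd37, Cd53, Cd63, Cd81, Cd82, Cd151, Upk1a, Upk1b, Prph2 or Rom1. This gave 261 of 241576 probe sets and 30 of 20848 genes, and another 3 probe sets that name Tspan31 together with Cdk4 were set aside. Six2 is a homeobox transcription factor, and the title of the series ties it to the control of E-cadherin in metastasis. The labels give neither the species of the Six2 insert nor whether either group is 1 clone.

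Tetraspanins are small proteins that cross the membrane several times and carry a large outer loop held by disulphide bonds. They bind each other and a set of partners, among them integrins, proteases and signalling receptors, and so gather them into patches of membrane and into vesicles that cells release. In carcinoma cells they are known for their part in adhesion and migration, and Cd82 is known as a suppressor of metastasis.

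Each value below is the RMA log2 level of a gene, the median over its probe sets, and each difference is Six2 minus control on that scale. A gene was said to rise or fall where limma's two-sided p, Benjamini-Hochberg adjusted over all 20848 genes, was under 0.05. Separate cultures are not mentioned in the labels, so the p-values cover array-to-array spread that may be purely technical. The number of arrays limits the precision, and the smallest p that an exact permutation of 3 against 3 arrays allows is 0.1. Pearson correlations over genes, which are not independent replicates, were 0.992 to 0.994 within Six2, 0.994 within control and 0.983 to 0.987 between the groups. Six2 replicate 3 stood apart from the others on the second principal component, which held 15.2% of the variance, and without it 3 tetraspanins rose and 7 fell. Six2 itself was at 3.60, 3.94 and 4.03 in Six2 arrays, against 3.69, 3.25 and 3.62 in control arrays (difference 0.33, SE 0.16, limma adjusted p = 0.215), so the gene value does not check the labels. The 4 Six2 probe sets differed by -0.60 to 1.19 (lowest limma adjusted p = 0.0908). Cdh1, which encodes E-cadherin, was at 4.41 in Six2 arrays and 7.57 in control arrays. Of 12 epithelial markers, 0 rose and 4 fell by limma (1 higher and 7 lower at an unadjusted p under 0.05), namely Krt7 (-2.27), Krt19 (-1.24), Krt18 (-0.81) and Krt8 (-0.56), while Krt5 (0.71) did not pass. Krt8 and Krt18 were the epithelial markers with a mean above 6, at 11.8 and 10.9 in Six2 arrays and 12.3 and 11.7 in control arrays, while the defining marker Epcam was low in both groups, at 3.72 in Six2 arrays and 4.47 in control arrays. Of 12 mesenchymal markers, 0 rose and 3 fell by limma (0 higher and 3 lower at an unadjusted p under 0.05), Sparc (-0.87), Fn1 (-0.62) and Lum (-0.48). Lum was low in both groups, at 2.15 in Six2 arrays and 2.63 in control arrays. Over all 20848 genes, 2763 were higher and 3551 lower at an unadjusted p under 0.05 by limma. The part of these markers in the tetraspanin differences was not tested.

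Of the 30 tetraspanins, 3 rose in Six2 cells, 8 fell and 19 did not pass. Over all genes, 6.70% rose, 8.02% fell and 14.7% did either. Cd53 rose most, 6.28-fold, followed by Tspan12 and Tspan15. Tspan11 fell most, 3.61-fold, and Tspan9, Rom1, Cd9, Tspan17, Cd81, Cd151 and Tspan14 fell as well. The median difference was -0.24 over the 30 genes and -0.05 over all genes. A mean above 6 over all arrays was found for 13 tetraspanins, and 7 of these changed, beside 24.6% of all genes with such a mean. Of the 17 with a mean of at most 6, 2 rose and 2 fell, Tspan17 and Rom1. The 19 that did not pass, 6 of them with a mean above 6, are not shown to be unchanged. All Six2 arrays lay above all control arrays in 6 of the 30 tetraspanins and below them in 13. Over all 20848 genes, these counts were 3280 and 4193.

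**Figure D1:**
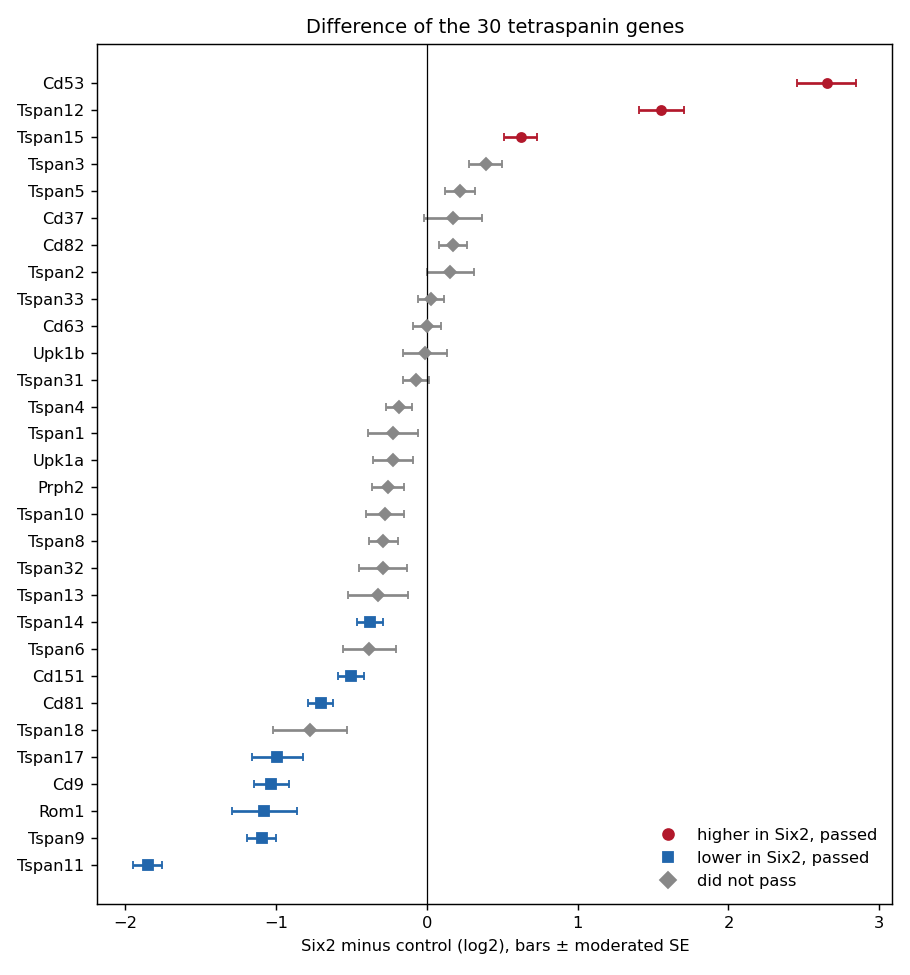
Difference of each of the 30 tetraspanin genes, Six2 minus control on the log2 scale, with bars of the moderated SE from limma (3 arrays per group). Cd53 (2.65), Tspan12 (1.55) and Tspan15 (0.62) stand at the high end as circles, the 8 genes that fell are squares down to Tspan11 (-1.85), and the 19 that did not pass are diamonds.

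The windows around the starts of 4 members are shown because they carry the largest rises and falls, Cd53, Tspan12 and Tspan11, and, for contrast, Cd9. Each holds 250 bases before and 50 after the start of the gene in RefSeq (GRCm38.p6), 5' to 3' on the gene's strand, with CpG dinucleotides in capitals.
Cd53, chr3:106790100-106790399, minus strand: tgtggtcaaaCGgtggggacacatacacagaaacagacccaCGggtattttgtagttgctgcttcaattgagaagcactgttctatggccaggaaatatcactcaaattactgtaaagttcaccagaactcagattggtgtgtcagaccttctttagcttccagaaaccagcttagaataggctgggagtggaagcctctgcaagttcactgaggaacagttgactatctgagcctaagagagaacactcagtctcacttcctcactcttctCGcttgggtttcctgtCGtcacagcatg
Tspan12, chr6:21852484-21852783, minus strand: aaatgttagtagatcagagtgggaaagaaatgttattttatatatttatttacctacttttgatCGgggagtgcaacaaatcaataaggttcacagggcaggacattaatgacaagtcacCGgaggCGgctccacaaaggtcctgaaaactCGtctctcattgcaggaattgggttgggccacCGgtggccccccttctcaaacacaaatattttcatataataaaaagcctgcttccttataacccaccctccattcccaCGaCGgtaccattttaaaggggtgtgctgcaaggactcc
Tspan11, chr6:127887372-127887671, plus strand: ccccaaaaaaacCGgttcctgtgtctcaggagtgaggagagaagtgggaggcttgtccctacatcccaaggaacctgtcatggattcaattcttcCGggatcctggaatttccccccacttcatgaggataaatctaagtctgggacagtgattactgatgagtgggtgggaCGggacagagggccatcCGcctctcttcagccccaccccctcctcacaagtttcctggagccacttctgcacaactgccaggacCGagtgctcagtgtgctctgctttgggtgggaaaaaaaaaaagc
Cd9, chr6:125494711-125495010, minus strand: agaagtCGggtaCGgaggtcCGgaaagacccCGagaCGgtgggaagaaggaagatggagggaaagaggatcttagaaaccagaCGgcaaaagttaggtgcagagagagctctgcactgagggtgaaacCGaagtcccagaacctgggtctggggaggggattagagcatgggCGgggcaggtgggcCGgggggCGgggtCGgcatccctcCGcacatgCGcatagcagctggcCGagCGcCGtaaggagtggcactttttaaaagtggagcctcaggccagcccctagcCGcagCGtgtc

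These windows hold 4 CpG in Cd53, 7 in Tspan12, 5 in Tspan11 and 18 in Cd9, and the median over 32851 windows of all genes was 7. At most 7 CpG were found in 51.4% of all windows, so the CpG counts of the first 3 are not unusual. Of the other tetraspanins that changed, each had a richest window of at least 18 CpG, up to 33 in Tspan14. Tspan14, Tspan9 and Cd151 also had poorer windows, down to 3, 3 and 4 CpG. A richest window of at most 7 CpG was found for 10 members, of which only 3 changed, so it is not particular to those that changed. RefSeq windows were found for 28 members, 38 windows in all. The letters TCANGTTTC, a core of the binding site known for Six2 and its relatives, were searched on both strands. They were in 0 of the 38 windows and in 1.08% of all windows.

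Cd53 is a tetraspanin known mainly from leukocytes, as are Cd37 and Tspan32. Cd53 was at 6.47, 6.59 and 7.23 in Six2 arrays, against 4.04, 4.15 and 4.15 in control arrays. Every Six2 array lay far above every control array, and Six2 replicate 3 was the highest. The difference was 2.65 (SE 0.20, limma adjusted p = 0.000591, exact permutation p = 0.1), and it was 2.42 without that replicate. All 8 Cd53 probe sets were higher in Six2 arrays, by 2.15 to 3.12, and 5 of them passed over all 241576 probe sets, of which 1.20% rose and 1.60% fell. Cd37 averaged 3.78 in Six2 arrays and 3.61 in control arrays (limma adjusted p = 0.605). Tspan32 averaged 2.97 in Six2 arrays and 3.26 in control arrays (limma adjusted p = 0.279).

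Leukocyte markers were read beside Cd53. Of 17 measured leukocyte markers, 0 rose and 2 fell by limma, Ptprc, which encodes CD45 (-0.63), and Adgre1, a macrophage surface receptor (-0.62). Both were low in both groups, Ptprc at 3.78 in Six2 arrays and 4.41 in control arrays, and Adgre1 at 2.97 and 3.59. At an unadjusted p under 0.05 there were 0 higher and 4 lower, beside 2763 and 3551 of all 20848 genes. Tyrobp, an adaptor of myeloid cells, was at 3.25 in both groups. The mean log2 level over the 17 markers was 3.80 to 3.92 in Six2 arrays and 4.01 to 4.05 in control arrays. The sum of their linear values was 568 to 649 in Six2 arrays and 634 to 673 in control arrays. Itgb2 and Cd68 were the markers with a mean above 6, with Itgb2 at 8.40 in Six2 arrays and 8.30 in control arrays (limma adjusted p = 0.615) and Cd68, a lysosomal protein of macrophages, at 6.71 in Six2 arrays and 7.27 in control arrays (limma adjusted p = 0.0851). RMA values have no true 0, so none of the markers can be listed at 0. In bulk RNA, a change in the number of cells of a type and a change in RNA per cell cannot be told apart.

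**Figure D2:**
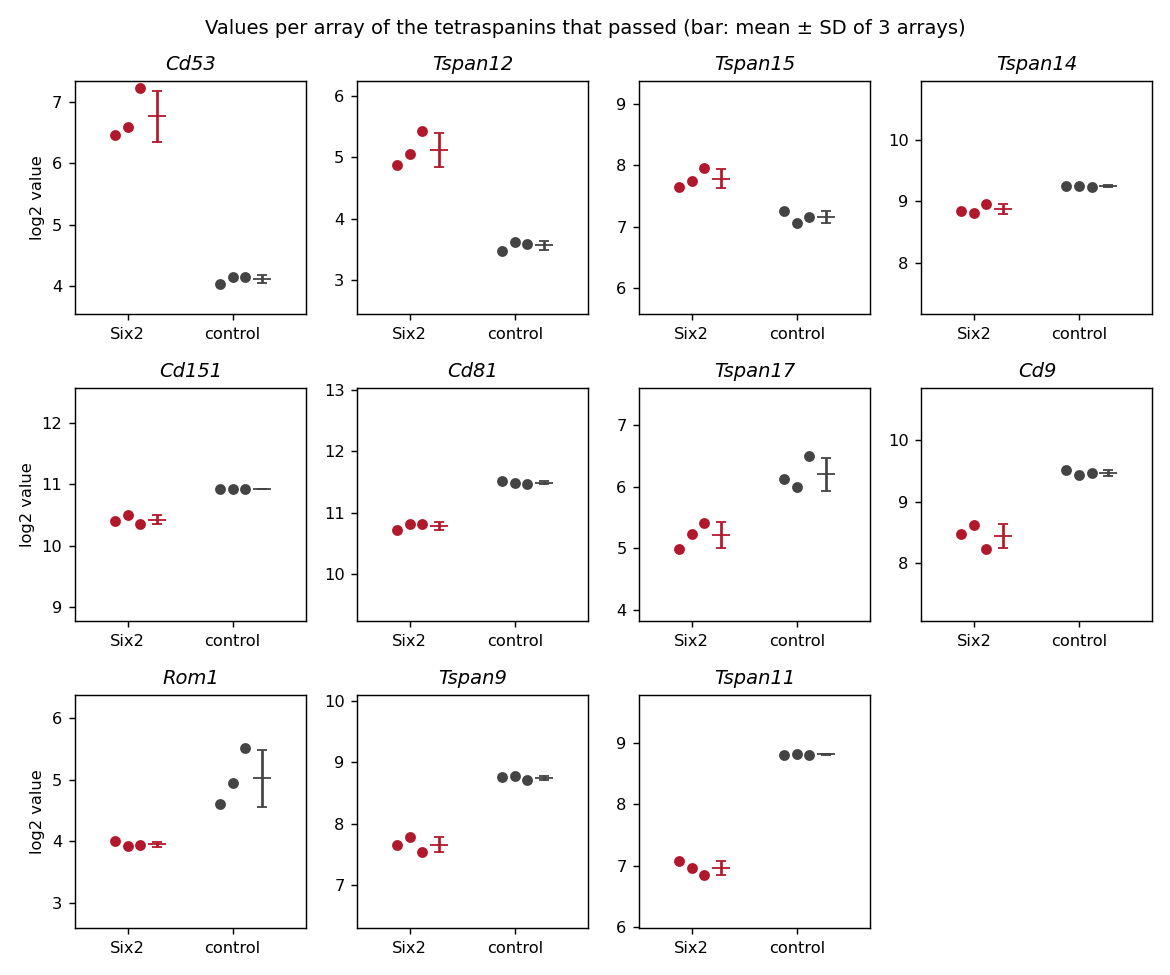
Log2 level per array of the 11 tetraspanins that passed, with Six2 left of control, points for arrays and a bar for the mean ± SD of 3 arrays. Each panel spans the same range of log2 units. In all 11 the groups do not overlap, which also holds for 3280 higher and 4193 lower genes of all 20848. Cd53 shows the widest gap, 6.47 to 7.23 in Six2 arrays and 4.04 to 4.15 in control arrays.

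Tspan12 is a co-receptor of the norrin receptor, in which Fzd4 and Lrp5 bind the ligand encoded by Ndp, and it is known for its role in retinal vessels. Tspan12 was at 4.88, 5.06 and 5.43 in Six2 arrays, against 3.48, 3.63 and 3.59 in control arrays. The groups did not overlap, and the difference was 1.55 (SE 0.15, limma adjusted p = 0.00139). All 10 Tspan12 probe sets were higher in Six2 arrays, but by unequal amounts of 0.39 to 2.53, and 1 passed. The gene value lies in a gap between them. With each probe set centred on its own mean before the median, the rise was 0.94 and still passed, as it did with dim probe sets left out (1.00), while the brightest Tspan12 probe set differed by 0.44 and did not (limma adjusted p = 0.328). Ndp was at 7.07, 7.07 and 7.03 in Six2 arrays, against 4.38, 4.74 and 4.05 in control arrays. Ndp rose by 2.66 (SE 0.17, limma adjusted p = 0.000338), clear of the spread in both groups. The receptors Fzd4 (-0.36), Lrp5 (-0.25) and Lrp6 (-0.29) did not pass, with limma adjusted p = 0.138, 0.116 and 0.0959.

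Cd9 and Cd81 are close relatives that bind the immunoglobulin proteins Igsf8 and Ptgfrn, and both are used as markers of released vesicles. Cd9 was at 8.47, 8.62 and 8.23 in Six2 arrays, against 9.52, 9.43 and 9.46 in control arrays. Cd9 fell 2.04-fold, with a difference of -1.03 (SE 0.12, limma adjusted p = 0.00274). Its 7 probe sets were all lower, by -1.14 to -0.20, and 2 passed. With each probe set centred first, the fall was -0.68, and with the brightest probe set it was -0.49, both past the threshold. Cd81 was at 10.7, 10.8 and 10.8 in Six2 arrays, against 11.5, 11.5 and 11.5 in control arrays. It fell 1.63-fold (-0.70, SE 0.08, limma adjusted p = 0.00309), the groups were well apart, and 6 of its 8 probe sets passed. Igsf8 (-0.05, limma adjusted p = 0.804) and Ptgfrn (0.24, limma adjusted p = 0.313) did not pass. Hbegf, whose membrane-bound precursor binds Cd9, rose by 0.89 (SE 0.08, limma adjusted p = 0.00112).

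Cd151 binds the laminin-binding integrins and links them to the cell's anchoring sites. It was at 10.4, 10.5 and 10.4 in Six2 arrays, against 10.9, 10.9 and 10.9 in control arrays. Cd151 fell 1.42-fold (-0.50, SE 0.09, limma adjusted p = 0.0104), with tight values in both groups. All 13 Cd151 probe sets were lower, by -0.51 to -0.16, though 0 passed by limma over all probe sets (8 at an unadjusted p under 0.05). With each probe set centred first, the fall was -0.33 and passed, and with the brightest probe set it was -0.17 and did not (limma adjusted p = 0.250). Of 5 laminin-binding integrin chains, Itga7 rose (1.17, SE 0.17) and Itgb4 (-1.25, SE 0.12) and Itga3 (-0.37, SE 0.10) fell, and Itga6 (0.06) and Itgb1 (0.25) did not pass. The call of Itga3 was lost without any 1 of the 6 arrays and with its brightest probe set (-0.03). That of Itga7 was lost with its brightest probe set (0.76) and with each probe set centred first (0.53). Itga7 averaged only 5.19 in Six2 arrays and 4.03 in control arrays. Of 6 other integrin chains that work with tetraspanins, Itgb3 (-2.46, SE 0.16) and Itgb7 (-0.47, SE 0.09) fell, the call of Itgb7 being lost in 6 of 15 alternatives, among them leaving out Six2 replicate 2 or any 1 control array.

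Cd82 and Cd63 did not pass. Cd82 averaged 9.29 ± 0.04 in Six2 arrays and 9.12 ± 0.10 in control arrays (SD, n = 3 each), with a difference of 0.17 (95% interval -0.04 to 0.39, limma adjusted p = 0.259). Cd63, a protein of late endosomes and lysosomes, averaged 11.05 ± 0.05 in Six2 arrays and 11.05 ± 0.11 in control arrays (SD, n = 3 each). The 95% interval of its difference was -0.22 to 0.22.

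The members that bind the protease Adam10, and guide its exit from the endoplasmic reticulum and its choice of substrate, are Tspan5, Tspan10, Tspan14, Tspan15, Tspan17 and Tspan33. They did not move together, with Tspan15 higher and Tspan17 and Tspan14 lower in Six2 arrays. Tspan17 was at 4.995, 5.24 and 5.42 in Six2 arrays, against 6.13, 5.99 and 6.51 in control arrays. It fell 1.99-fold (-0.99, SE 0.17, limma adjusted p = 0.0102), and 3 of its 10 probe sets passed, all 10 being lower, with the brightest at -1.52. Tspan14 was at 8.84, 8.81 and 8.96 in Six2 arrays, against 9.25, 9.26 and 9.24 in control arrays. Its fall of -0.38 (SE 0.09, limma adjusted p = 0.0287) was small though the groups did not overlap, and the call was lost in 8 of 15 alternatives, 5 of them leaving out 1 array other than Six2 replicate 3.

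Tspan15 was at 7.65, 7.74 and 7.95 in Six2 arrays, against 7.26, 7.07 and 7.16 in control arrays. The groups did not overlap, and the rise was 0.62 (SE 0.11, limma adjusted p = 0.0123). This gene value exceeds the difference of every single Tspan15 probe set, which ran from -0.29 to 0.51, since the median falls on different probe sets in different arrays. With each probe set centred first, the rise was 0.31 (limma adjusted p = 0.0374), while it did not pass with their mean (0.27), with the brightest probe set (0.42) or without control replicate 2. Tspan5 (0.22, limma adjusted p = 0.185), Tspan10 (-0.28, limma adjusted p = 0.191) and Tspan33 (0.03, limma adjusted p = 0.880) did not pass. Adam10 itself averaged 9.72 in Six2 arrays and 9.55 in control arrays (limma adjusted p = 0.261). Of its substrates, Notch2 rose (0.36, SE 0.08) and Notch1 fell (-0.58, SE 0.12), but both calls were lost without any 1 control array or Six2 replicate 2, and that of Notch2 also without Six2 replicate 1. Notch2 was at -0.01 with chromosome medians subtracted.

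Tspan9, known from platelets, and Tspan11 fell together. They lie next to each other on chromosome 6, with no measured gene between them. Tspan11 was at 7.07, 6.95 and 6.84 in Six2 arrays, against 8.81, 8.82 and 8.80 in control arrays. The control values hardly differed, and the fall was -1.85 (SE 0.09, limma adjusted p = 0.000185). All 10 Tspan11 probe sets were lower, by -1.93 to -0.70, and 7 passed. Tspan9 was at 7.65, 7.78 and 7.53 in Six2 arrays, against 8.75, 8.78 and 8.72 in control arrays. It fell 2.14-fold (-1.10, SE 0.10, limma adjusted p = 0.00103), evenly over its 10 probe sets (-1.23 to -0.89), of which 8 passed.

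**Figure D3:**
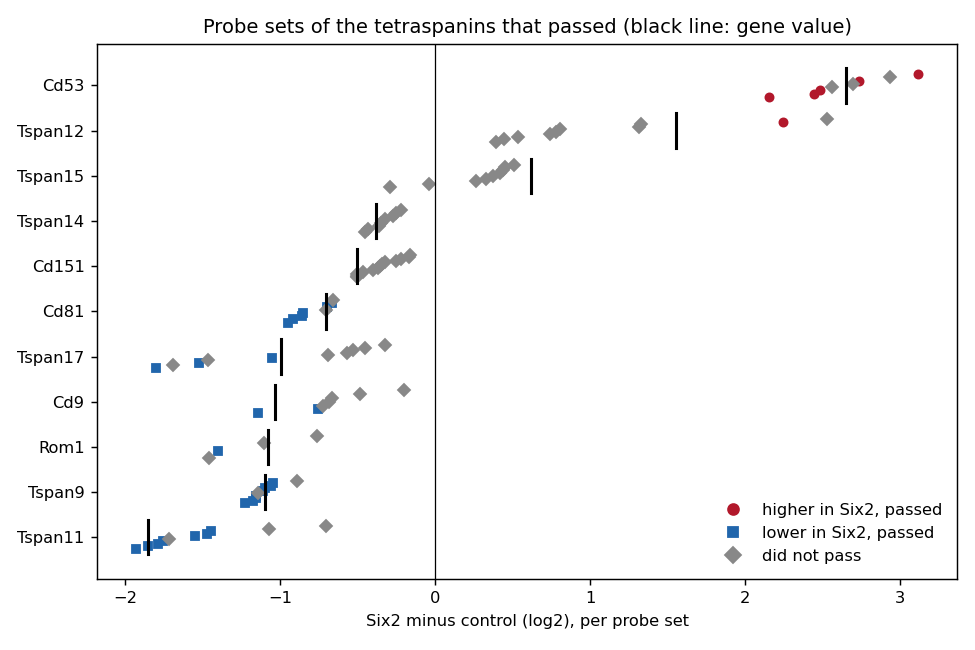
Difference of each probe set of the 11 tetraspanins that passed, Six2 minus control on the log2 scale, with a black line at the value of the gene. The 8 probe sets of Cd53 all lie between 2.15 and 3.12, those of Tspan12 spread from 0.39 to 2.53, and the line of Tspan15 (0.62) lies beyond all its probe sets.

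Rom1 and Prph2 are the tetraspanins of photoreceptor discs, where they bind each other. Rom1 was at 4.00, 3.92 and 3.93 in Six2 arrays, against 4.61, 4.95 and 5.52 in control arrays. It fell 2.11-fold (-1.08, SE 0.22, limma adjusted p = 0.0189), though the control arrays were spread and the call was lost without control replicate 2 or any 1 Six2 array (limma adjusted p up to 0.0586). Prph2 averaged 4.14 in Six2 arrays and 4.39 in control arrays and did not pass (limma adjusted p = 0.150). Upk1a (-0.23) and Upk1b (-0.01), which form the plaques of the urothelium with Upk2 and the Upk3 proteins, did not pass either. Upk2 (-0.09), Upk3a (0.04) and Upk3b (-0.34) did not pass.

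Of the remaining members with a mean above 6, Tspan3 averaged 10.2 in Six2 arrays and 9.77 in control arrays (0.39, SE 0.11, limma adjusted p = 0.0573). All its 13 probe sets were higher, by 0.15 to 1.68, and Tspan3 passed with each probe set centred first (0.23, limma adjusted p = 0.0264). Tspan4, a protein of migrasomes, the vesicles left behind by migrating cells, was at 11.3 in Six2 arrays and 11.5 in control arrays (-0.19, 95% interval -0.39 to 0.02, limma adjusted p = 0.203). Tspan31 differed by -0.07 (95% interval -0.27 to 0.13, limma adjusted p = 0.627), and the 3 probe sets shared with Cdk4 differed by -0.19 to -0.05. The 13 members with a mean of at most 6 that did not pass ran from -0.78 for Tspan18 (limma adjusted p = 0.0814) to 0.17 for Cd37. They include Tspan1, Tspan2, Tspan6, Tspan8 and Tspan13, of which Tspan6 had 1 probe set past the threshold (-1.13).

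Where members lie in the genome was set beside their changes, since differences varied by chromosome. Genes with a mean above 6 had a median difference of 0.37 on chromosome 3, which holds Cd53, and -0.07 on chromosome 6, which holds Tspan12, Tspan11, Tspan9 and Cd9. On chromosome 3, 178 of 419 such genes rose and 13 fell, beside 1095 and 1117 of 8974 over all chromosomes. The median was -0.13 on chromosome 7 (Cd81 and Cd151), -0.18 on 19 (Rom1) and 0.17 on 10 (Tspan15). It was -0.04 on chromosome 13 (Tspan17) and -0.03 on 14 (Tspan14). The 5 measured genes on either side of Cd53 had a median of 0.29 and differed by -0.12 to 1.09, all less than Cd53. Of these 10 genes, 1 rose, Lrif1, the next measured gene. Besides Lrif1, only Cept1 (0.42) and Dram2 (0.33), which did not pass, had a mean above 6, and each was higher in Six2 arrays. The others had means of 2.54 to 4.72, and signal near background limits what such dim neighbours can show. Around Tspan12 the 10 neighbours ran from -0.36 to 0.40, and 1 rose, Ing3. Only Ing3 and Fam3c (-0.22) among them had a mean above 6. Around Tspan11 the 10 neighbours had a median of -0.12, and the 2 that fell were Tspan9 and Parp11. The 10 neighbours of Tspan17 ran from -0.27 to 0.31 and the 10 of Cd9 from -0.51 to 0.31, all closer to 0 than these members. Among the neighbours of Cd9, only Ltbr (0.09) and Tnfrsf1a (-0.02) had a mean above 6. A neighbour fell more than the member itself for Tspan9, where it was Tspan11, and for Cd81, Cd151 and Tspan14. Cd81 (-0.70) had neighbours down to -0.76, and 2 of 10 fell, R74862 and Slc22a18. Cd151 (-0.50) had neighbours down to -0.53, and 3 of 10 fell, Pnpla2, Ap2a2 and Polr2l. Tspan14 (-0.38) had neighbours down to -0.90, and 2 of 10 fell, Prxl2a and Ghitm. The 10 neighbours of Rom1 were all lower, by -0.56 to -0.10, and 2 fell, Eml3 and Mta2. Around Tspan15 (0.62) the 10 neighbours ran from -0.74 to 0.47, with 1 that rose, Supv3l1, and 1 that fell, Neurog3. Of the other pairs of tetraspanins that lie close, Cd151 fell while Tspan4, 1 measured gene away, did not pass, and Cd81 fell while Tspan32, also 1 measured gene away, did not. The difference between these pairs was not tested.

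**Figure D4:**
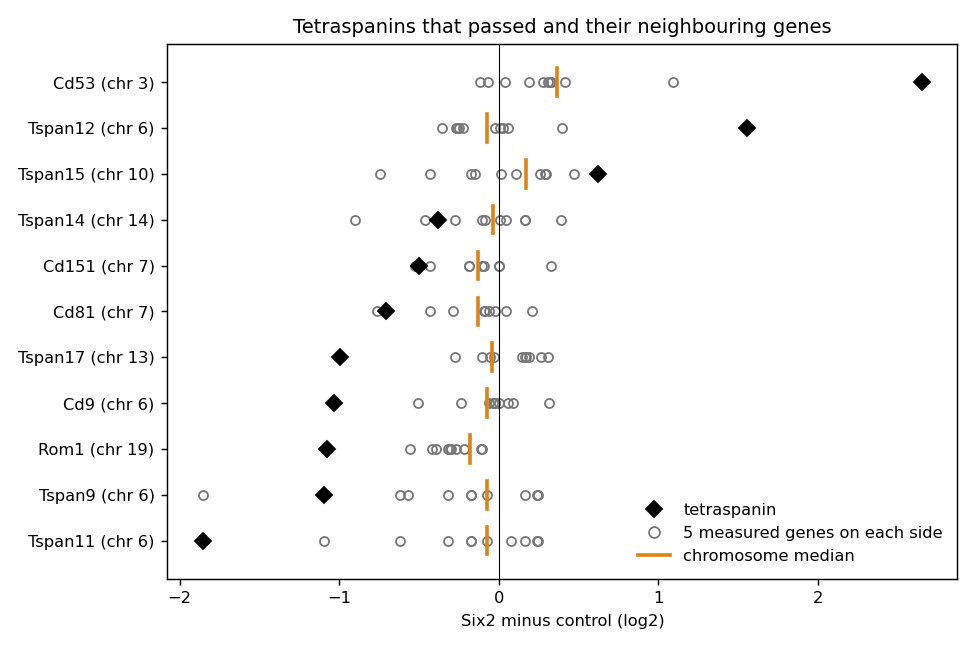
Difference of each tetraspanin that passed (diamond), of the 5 measured genes on each side of it (open circles) and the median of its chromosome over genes with a mean above 6 (orange line), Six2 minus control on the log2 scale. Cd53 (2.65) and Tspan12 (1.55) lie outside the range of their neighbours, Cd81, Cd151, Tspan14 and Tspan9 lie within it, and the circle at -1.10 beside Tspan11 is Tspan9. Most neighbours of Cd53, Tspan12 and Cd9 had a mean of at most 6.

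Genes known to work with tetraspanins were described from 9 lists of 54 genes, of which 53 were measured. Of these, 7 rose, 8 fell and 38 did not pass, with a median of -0.05, beside 6.70% and 8.02% of all genes. A mean above 6 was found for 36 of the 53, and 11 of these changed, beside 24.6% of all genes with such a mean. The lists were chosen with earlier results of these data known, so these shares cannot show an excess among partners. Zdhhc2, an enzyme that attaches palmitate to Cd9 and Cd151 in human cells, was at 6.69, 6.87 and 7.14 in Six2 arrays, against 4.83, 5.38 and 5.68 in control arrays. Zdhhc2 rose 3.03-fold (1.60, SE 0.23, limma adjusted p = 0.00567), and the groups did not overlap. Vcam1, an adhesion receptor that clusters with Cd9 and Cd151 on endothelium, rose by 1.38 (SE 0.19, limma adjusted p = 0.00535).

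Of 11 genes of vesicle release, 1 rose and 3 fell. Rab27a, a small GTPase that docks the compartments that release exosomes, was at 5.66, 6.23 and 5.91 in Six2 arrays, against 4.51, 4.62 and 4.99 in control arrays. Rab27a rose by 1.23 (SE 0.18, limma adjusted p = 0.00698). Flot1, a scaffold of membrane microdomains, was at 7.26, 7.33 and 7.38 in Six2 arrays, against 8.25, 8.33 and 8.19 in control arrays. Flot1 fell by 0.93 (SE 0.09, limma adjusted p = 0.00136), and its relative Flot2 fell by 0.41 (SE 0.08, limma adjusted p = 0.0192). Smpd3, which makes ceramide, fell by 0.80 (SE 0.17, limma adjusted p = 0.0209). It was low in both groups, at 3.83 in Six2 arrays and 4.62 in control arrays. With the brightest probe set Smpd3 was at -0.12 and Flot2 at -0.28, and neither passed. Without Six2 replicate 2, control replicate 2 or control replicate 3 neither passed, and Flot2 also did not without Six2 replicate 1. Of the 5 genes of the L6 family, which share the membrane topology of tetraspanins but not their sequence, 0 passed by limma, and 1 was lower at an unadjusted p under 0.05.

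**Figure D5:**
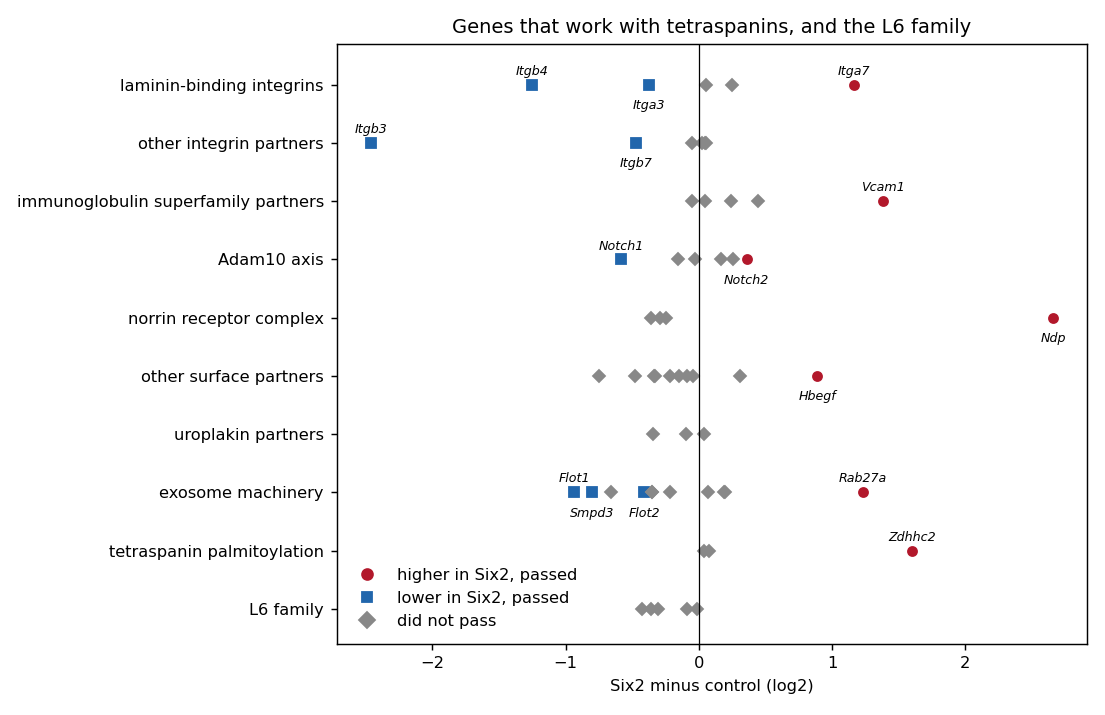
Differences of the measured genes of 9 partner lists and of the L6 family, Six2 minus control on the log2 scale, with 1 mark per gene and names for those that passed. Ndp (2.66) and Zdhhc2 (1.60) are the highest and Itgb3 (-2.46) is the lowest.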

How the data were processed

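Total RNA of 4TO7 cells was measured on 6 arrays, 3 per group, with groups from the sample titles. Per the submitters' processing notes, the deposited log2 values come from RMA as run in Affymetrix Power Tools. Versions and the array's genome build were not given in the sources used here. Gene names came from the platform annotation and were updated through RefSeq synonyms (2354 of 20893 symbols), and 43 were not found. Each gene was fitted in limma (version 3.58.1, lmFit then eBayes, R 4.3.3, with the package data.table at version 1.17.8), without a filter on dim genes, and the same test was run on each probe set. RMA makes the distributions of arrays alike, so a shift in total RNA is not visible, and folds of dim genes are compressed. On simulated data with 20848 genes, 200 of them changed, this test recovered 94% of 50 genes raised by 2 on the log2 scale. It recovered 68% of those raised by 1 and 12% of those raised by 0.5. In the real data 3068 genes passed, so the adjusted threshold lies elsewhere and these shares need not hold there. The members and the gene lists were chosen with earlier results of these data known. All tetraspanins are accounted for, those that passed with their value in every array, and partner genes that passed are named. Alternatives were the mean or brightest probe set, dim rows left out (30th percentile), 2 other scalings, a replicate block, each array left out, a variance trend with robust variance and chromosome medians subtracted. Centring each probe set before the median was added after seeing the data.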

Additional observations from a re-analysis of the deposited data

How the results depend on the processing

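Cd53 passed in all 15 alternatives, at 2.42 to 2.80, and Cd9, Cd81, Tspan9, Tspan11 and Tspan17 also passed in all 15. The calls of the other 5 tetraspanins were lost in 1 to 8. The number of tetraspanins that rose was 1 with the brightest probe set and 5 with each probe set centred first, and 2 to 3 with 1 array left out. The number that fell was 6 to 10 over all alternatives, and 6 to 7 with 1 array left out. Partner genes that rose were 11 with a variance trend and robust variance, and 6 to 7 with 1 array left out. Partner genes that fell were 4 with the brightest probe set, 17 with the mean, 15 with the variance trend, 18 with each probe set centred first, and 3 to 8 with 1 array left out. Of 261 tetraspanin probe sets, 6 rose and 28 fell, beside 1.20% and 1.60% of all 241576 probe sets. These 261 are repeated readings of 30 genes. Shares over all probe sets were not computed for the alternatives, so their counts cannot be read as particular to tetraspanins. With dim rows left out 11 rose, and with the variance trend 16 rose and 43 fell. Leaving out 1 array gave 0 to 2 that rose and 0 to 7 that fell by limma (23 to 28 and 57 to 64 at an unadjusted p under 0.05).

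Same-numbered arrays of the groups did not deviate together (r = -0.01, -0.01 and -0.05), which shows no sign of a pairing but cannot exclude one. With the replicate block, 3 tetraspanins rose and 8 fell, 3 partner genes fell, and 0 tetraspanin probe sets rose and 0 fell by limma (25 and 60 at an unadjusted p under 0.05).

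Signs turned for genes near 0. Cd63 was at -0.026 with arrays centred, -0.17 with chromosome medians subtracted, -0.0067 with quantile normalization and -0.062 to 0.038 with 1 array left out. Cd82 was at -0.083 with the mean and -0.0096 with each probe set centred first. With chromosome medians subtracted, Notch2 was at -0.0087 and Tspan5 at -0.15. That setting adjusts only genes with a mean above 6, so it left Cd53, Tspan12, Tspan17 and Rom1 as they were. The cause of these changes was not tested. Signal near background limits what the dim members can show.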
